A study of Sus scrofa with 48 samples.

Results

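Polyamines (putrescine, spermidine and spermine) are small cations made from ornithine and from decarboxylated S-adenosylmethionine, and growing cells need them for translation and nucleic acid function. Ornithine decarboxylase (ODC1) makes putrescine, S-adenosylmethionine decarboxylase (AMD1) supplies the aminopropyl groups, and spermidine synthase (SRM) and spermine synthase (SMS) add them. SAT1 acetylates spermidine and spermine for export or breakdown, and the antizymes OAZ1, OAZ2 and OAZ3 bind ornithine decarboxylase and hold it in check. OAZ1 and OAZ2 are expressed in most tissues, whereas OAZ3 is best known from male germ cells. In adipose tissue the SAT1 reaction uses acetyl-CoA, which is also the building block of fatty acids.

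These 8 genes were examined in the perirenal adipose tissue (PRAT) that surrounds the kidneys of 48 Large White barrows, with 1 one-colour Cy3 porcine array per pig. The members were the probes of the scanner files that carry one of the 8 gene names, which gave 26 probes among 60305, and OAZ3 alone was chosen by a measured value, its difference between the lines on these arrays. The 4 groups of 12 pigs were pigs of the low residual feed intake (RFI) line on the HF diet (HF_RFIneg), high RFI pigs on HF (HF_RFIpl), low RFI pigs on LF (LF_RFIneg) and high RFI pigs on LF (LF_RFIpl). HF was rich in fat and fiber, LF was poor in both and rich in starch, both were eaten freely, and the labels give an age of 132 days for every pig. RFI is measured intake minus the intake that growth and maintenance predict, so a low RFI pig is the more efficient one, and each line stands for a single selection history. Effects of selection and of drift between the lines cannot be told apart.

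Values are log2 of the median spot signal minus the median of that array, so 0 is the median probe of an array and each unit is a doubling. Differences are HF minus LF and low RFI minus high RFI, and they were called at raw p under 0.01, fold over 1.1 and Benjamini-Hochberg (BH) p under 0.08 in limma over 45749 probes. All 26 probes entered the test, none was saturated, and each gene is described at its brightest probe with its other probes beside it. Each array had 38875 to 47813 probes well above background, the lowest correlation of an array with the mean array was 0.982, and every one of the 6 slides held 2 arrays of each group. All 7 adipocyte markers were well above background on 48 of 48 arrays. Because the tissue was measured in bulk, fewer cells of a type and less RNA per cell cannot be told apart.

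OAZ3 was lower in low RFI than in high RFI pigs on both diets, and its values fell into a lower and an upper set of pigs. The array carries 3 OAZ3 probes. Probe A_72_P437459 and probe O3277 have the same sequence, while probe A_72_P619999 lies nearer the start of the coding region. The sequences are shown to let a reader see that the OAZ3 signal comes from separate stretches and to compare one of them with the related OAZ2 probe A_72_P441873. Capitals mark bases that are the same in OAZ3 and OAZ2 when the stretches are laid side by side without gaps, and they cover 22 of 41 aligned bases (53.7%).
OAZ3 A_72_P437459: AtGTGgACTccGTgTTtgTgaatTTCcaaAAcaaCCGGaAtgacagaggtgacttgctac
OAZ2 A_72_P441873: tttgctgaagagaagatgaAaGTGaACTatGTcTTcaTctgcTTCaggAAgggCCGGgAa
OAZ3 A_72_P619999: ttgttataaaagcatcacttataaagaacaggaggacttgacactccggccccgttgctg

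At A_72_P437459 the lowest, median and highest OAZ3 levels were 0.41, 0.88 and 2.60 in HF_RFIneg pigs. They were 0.66, 2.99 and 3.41 in HF_RFIpl pigs. In LF_RFIneg pigs they were 0.27, 0.99 and 3.52, and in LF_RFIpl pigs 0.75, 2.83 and 3.56. The medians of both low RFI groups therefore lay near the bottom of their ranges and those of both high RFI groups near the top, although the ranges overlapped. Group means in order were 2.82 ± 0.77 (SD, n = 12) in LF_RFIpl, 2.73 ± 0.78 in HF_RFIpl, 1.5 ± 1.15 in LF_RFIneg and 1.30 ± 0.89 in HF_RFIneg. Within each line the diets differed by less than the SD of either group.

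Over both diets OAZ3 averaged 1.40 ± 1.01 (SD, n = 24) in the low RFI line and 2.77 ± 0.76 (n = 24) in the high RFI line, a difference of -1.37 or 2.58-fold. Of the low RFI pigs, 23 of 24 lay below the high RFI median. The difference was -1.35 at O3277 and -0.87 at A_72_P619999. Because OAZ3 was chosen for this difference, it is given as a description without a test. Taken by slide it was -2.26 to -0.63, and by scan day -1.57 and -1.17. These are parts of the value that OAZ3 was chosen on and add no support to it.

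No pig had an OAZ3 level between 1.07 and 2.17 at A_72_P437459. Below this gap were 17 pigs, with spot signals of 152 to 318, and above it 31 pigs, with spot signals of 602 to 1671. All of these values were well above background. The lower set held 15 of 24 low RFI and 2 of 24 high RFI pigs. This split by line is part of the value that OAZ3 was chosen on and adds no support to it. By diet it held 9 HF and 8 LF pigs, so the sets were not a split by diet. The same 17 pigs were below the widest gap at all 3 OAZ3 probes, and the probes correlated at 0.98 or more after removal of group means. A gap at least as wide, with 5 or more pigs on either side, was found at 84 of 45749 probes (0.184%). A_72_P437459 itself and O3277 are among these. The within-group SD of OAZ3 was 0.91, and 1.32% of the probes tested had a higher one.

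**Figure D1:**
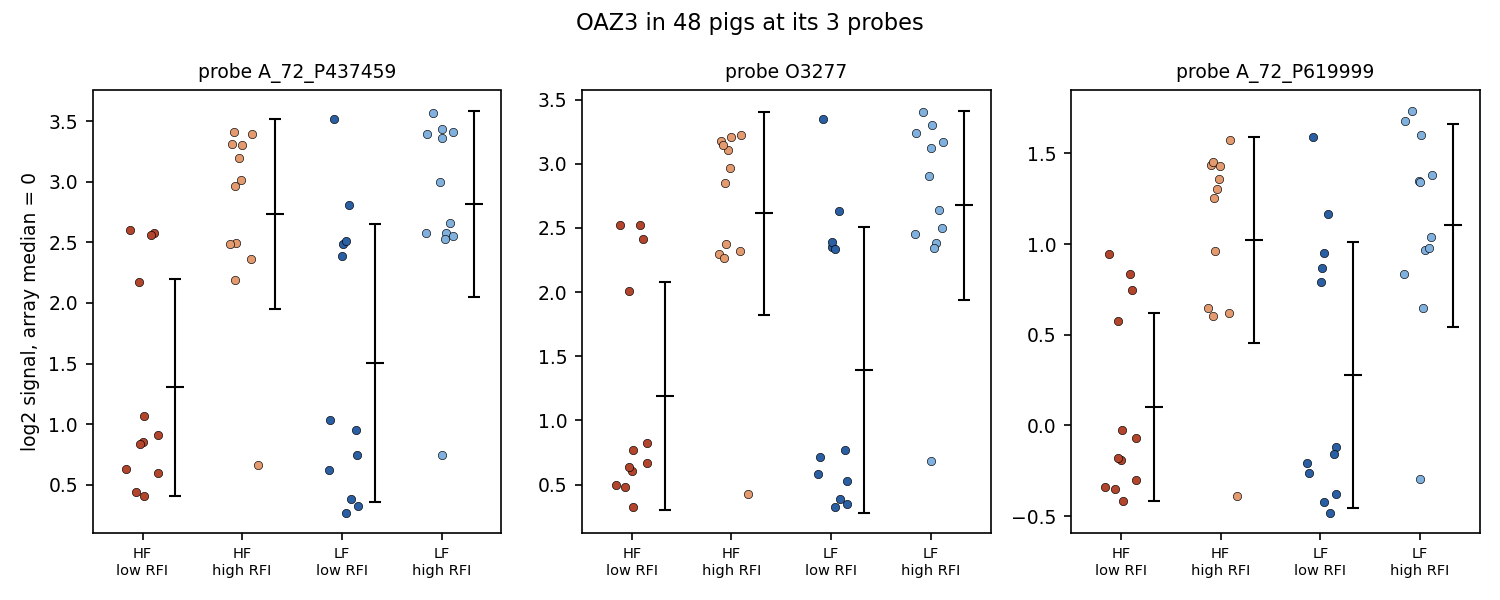
Level of OAZ3 (log2 signal with the array median at 0) in each of 48 pigs at its 3 probes, by group, with a bar for the mean and SD (n = 12). At every probe the same 17 pigs form a lower set, of which 15 are low RFI pigs.

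Diet did not pass the test for OAZ3. The difference was -0.14 ± 0.25 (SE, n = 24 against 24; limma BH p = 0.709), with a 95% interval of -0.65 to 0.37, the widest among the members and one that holds differences of either sign. The sign also differed between scan days (-0.46 and 0.18).

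Markers of male germ cells were looked at because OAZ3 is known from them. Of 5 markers on the array, 0 passed that mark on 48 of 48 arrays, and ACR, ODF1 and PRM2 had median spot signals of 43.5, 33 and 47 against 115 to 178 for the median probe of an array. PRM1 and TNP2 were above background on 46 and 47 arrays, with median signals of 65 and 65.25. The mean marker level ranged from -1.71 to -0.93 in the low RFI line and from -1.67 to 0.54 in the high RFI line. None of the markers tested was called for line. One high RFI array on LF had a far higher ACR level than the rest, and its OAZ3 level was 2.55.

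Some neighbours of OAZ3 also differed between lines. Of the 20 genes around OAZ3 in the gene order of assembly Sscrofa11.1 (10 on each side), 13 were tested, and 2 were called for line beside 2.95% of all genes at their brightest probe. These 2 were singled out after their values were seen. MRPL9, a mitochondrial ribosomal protein and the next gene, had levels of 5.70 to 6.64 in the low RFI line and 5.44 to 6.41 in the high RFI line, with means of 6.19 ± 0.20 and 5.96 ± 0.23 (SD, n = 24). The difference was 0.23 ± 0.06 (SE; limma BH p = 0.0137), and 0.30 (BH p = 0.000735) at its second probe. It thus ran against that of OAZ3. S100A10, a calcium-binding family protein that partners annexin A2, averaged 3.30 ± 0.34 in the low RFI line and 3.62 ± 0.37 in the high RFI line. Its difference of -0.33 ± 0.09 (limma BH p = 0.0401) ran the way of OAZ3. The ranges of the lines overlapped for both genes, and the other 11 neighbours tested were not called for line. Unlike OAZ3, both genes were also called for diet, as were 18.0% of all genes in that direction. They were lower on HF by -0.21 (MRPL9, limma BH p = 0.00434) and -0.28 (S100A10, limma BH p = 0.0179).

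Genes whose pattern over the 48 pigs was most like that of OAZ3 were found by Pearson r after removal of group means, among 9663 other genes. The highest were HNRNPA2B1 (0.61), an RNA-binding protein, TLE2 (0.54), a transcriptional corepressor, TMEM88 (0.53), HHATL (0.53) and FLT1 (0.52), a VEGF receptor. The lowest were GJB1 (-0.67), a gap junction protein, CHRD (-0.63), a BMP antagonist, and SOAT2 (-0.60), which esterifies cholesterol. As the OAZ3 values fall into separate sets, r was also taken within each, with the group means of all 48 pigs removed. Those means mix the lower and the upper set, so a line difference can remain in the values within a set. The genes were also picked by r on these same pigs, so the values within sets are no separate check. Among the 17 lower pigs the 5 highest gave 0.45 to 0.64, and among the 31 upper pigs 0.44 to 0.55 except FLT1, which gave 0.29. The 3 lowest gave -0.64 to -0.57 and -0.53 to -0.48. All points share their arrays, and no p is attached to these values.

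Diet went with most of the other members. Of the 8 genes, 4 were lower on HF at their brightest probe (OAZ1, SAT1, AMD1 and SMS), 1 was higher (ODC1), and OAZ2, OAZ3 and SRM did not pass the test. Over all genes, 18.0% were called lower and 5.93% higher in this way. Counted by probes, 17 of 26 were called, beside 22.1% of all probes tested. Of these 16 were lower on HF, where 14.0% of all probes were, and 1 was higher, where 8.18% were. The median difference was -0.25 over the 26 probes and -0.02 over all probes tested. Probes of a gene share its RNA and are not independent.

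OAZ1, the main antizyme, was lower on HF. Its lowest, median and highest levels were 9.52, 9.89 and 10.05 in HF pigs and 9.71, 10.09 and 10.42 in LF pigs. All 24 HF pigs lay below the LF median, and 16 LF pigs lay above every HF pig. The difference was -0.22 ± 0.05 (SE; limma BH p = 0.000345), or 1.17-fold. All 6 OAZ1 probes were called, with differences of -0.22 to -0.28. A pair of them overlap, as the run of 47 shared bases in capitals shows, so they are not separate measurements of the gene. After normexp and quantile normalization the difference at the brightest probe was -0.15 and still called.
OAZ1 A_72_P561364: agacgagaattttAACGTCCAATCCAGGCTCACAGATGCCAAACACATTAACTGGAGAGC
OAZ1 A_72_P059181: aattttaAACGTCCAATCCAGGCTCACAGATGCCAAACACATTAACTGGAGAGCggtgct

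OAZ2, a second broadly expressed antizyme, did not pass the test for diet. Its lowest, median and highest levels were 6.33, 6.49 and 6.71 on HF and 6.28, 6.49 and 6.79 on LF. The difference was -0.01 ± 0.04 (limma BH p = 0.913), with a 95% interval of -0.08 to 0.07. None of its 3 probes was called. They followed each other only weakly within groups (r of 0.17 to 0.52). Probe A_72_P375978 had low spot signals of 51.5 to 97 and was well above background on 47 of 48 arrays. Its within-group SD of 0.13 was low, since 94.8% of probes had a higher one.

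ODC1, the enzyme that antizymes bind, was higher on HF. Its lowest, median and highest levels were 4.0, 4.47 and 5.25 on HF and 3.58, 4.23 and 4.74 on LF. Of the HF pigs, 21 of 24 lay above the LF median and 7 lay above every LF pig. The difference was 0.27 ± 0.08 (limma BH p = 0.0109), or 1.21-fold. A probe named ODC in the files, which the choice of members by name leaves out, gave the same difference of 0.27 (BH p = 0.00839) and followed the ODC1 probe over the 48 pigs (r = 0.91, a description of probes that share their arrays).

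SAT1, the polyamine acetylating enzyme, was lower on HF. Its lowest, median and highest levels were 5.91, 6.49 and 6.92 on HF and 6.26, 6.82 and 7.15 on LF. Of the HF pigs, 22 of 24 lay below the LF median, but the ranges overlapped widely. The difference was -0.31 ± 0.07 (limma BH p = 0.000769), or 1.24-fold. Of its 8 probes, 6 were called lower, by -0.29 to -0.37. Those that start at bases 419, 426, 440, 444 and 494 of one transcript are 60 bases long. The probes at 419 to 444 overlap each other, and the brightest, at 494, overlaps those at 440 and 444 only. The overlapping probes are therefore not separate measurements of the gene, and only the called probe that starts at base 241 overlaps none of them. Probe O8826 had -0.17 ± 0.07 (limma BH p = 0.0613) and probe A_72_P565419 had 0.05 ± 0.10 (limma BH p = 0.732). Within groups the called probes followed the brightest one at r of 0.95 to 0.98, whereas O8826 gave 0.12 and A_72_P565419 gave 0.76.

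AMD1, which feeds aminopropyl groups into spermidine and spermine, was lower on HF. Its lowest, median and highest levels were 3.35, 3.72 and 4.18 on HF and 3.54, 4.18 and 4.59 on LF. All 24 HF pigs lay below the LF median and 12 LF pigs lay above every HF pig. The difference was -0.38 ± 0.07 (limma BH p = 0.000137), or 1.30-fold, and both probes were called.

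Of the aminopropyl transferases SMS was called and SRM was not, and the difference between the genes was not tested. SMS, spermine synthase, had lowest, median and highest levels of 4.03, 4.55 and 4.97 on HF and 4.33, 5.02 and 5.37 on LF. All 24 HF pigs lay below the LF median, and the difference was -0.39 ± 0.07 (limma BH p = 4.92e-05), or 1.31-fold. Its second probe, O9162, was called too (-0.16), but it was well above background on 25 of 48 arrays only. The name LOC100153052 is carried by a probe with the sequence of the brightest SMS probe and by A_72_P389378, of another sequence. A_72_P389378, which the choice of members by name leaves out, gave -0.37 (limma BH p = 3.07e-06). It followed the brightest SMS probe over the 48 pigs (r = 0.88, a description of probes that share their arrays). SRM, spermidine synthase, had lowest, median and highest levels of 3.08, 3.61 and 4.09 on HF and 3.15, 3.46 and 3.70 on LF. The difference of 0.14 ± 0.06 (limma BH p = 0.0599, raw p = 0.0172) missed the raw threshold. It was called when arrays were centred on the 75th percentile (0.17) or made equal by quantiles (0.19).

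**Figure D2:**
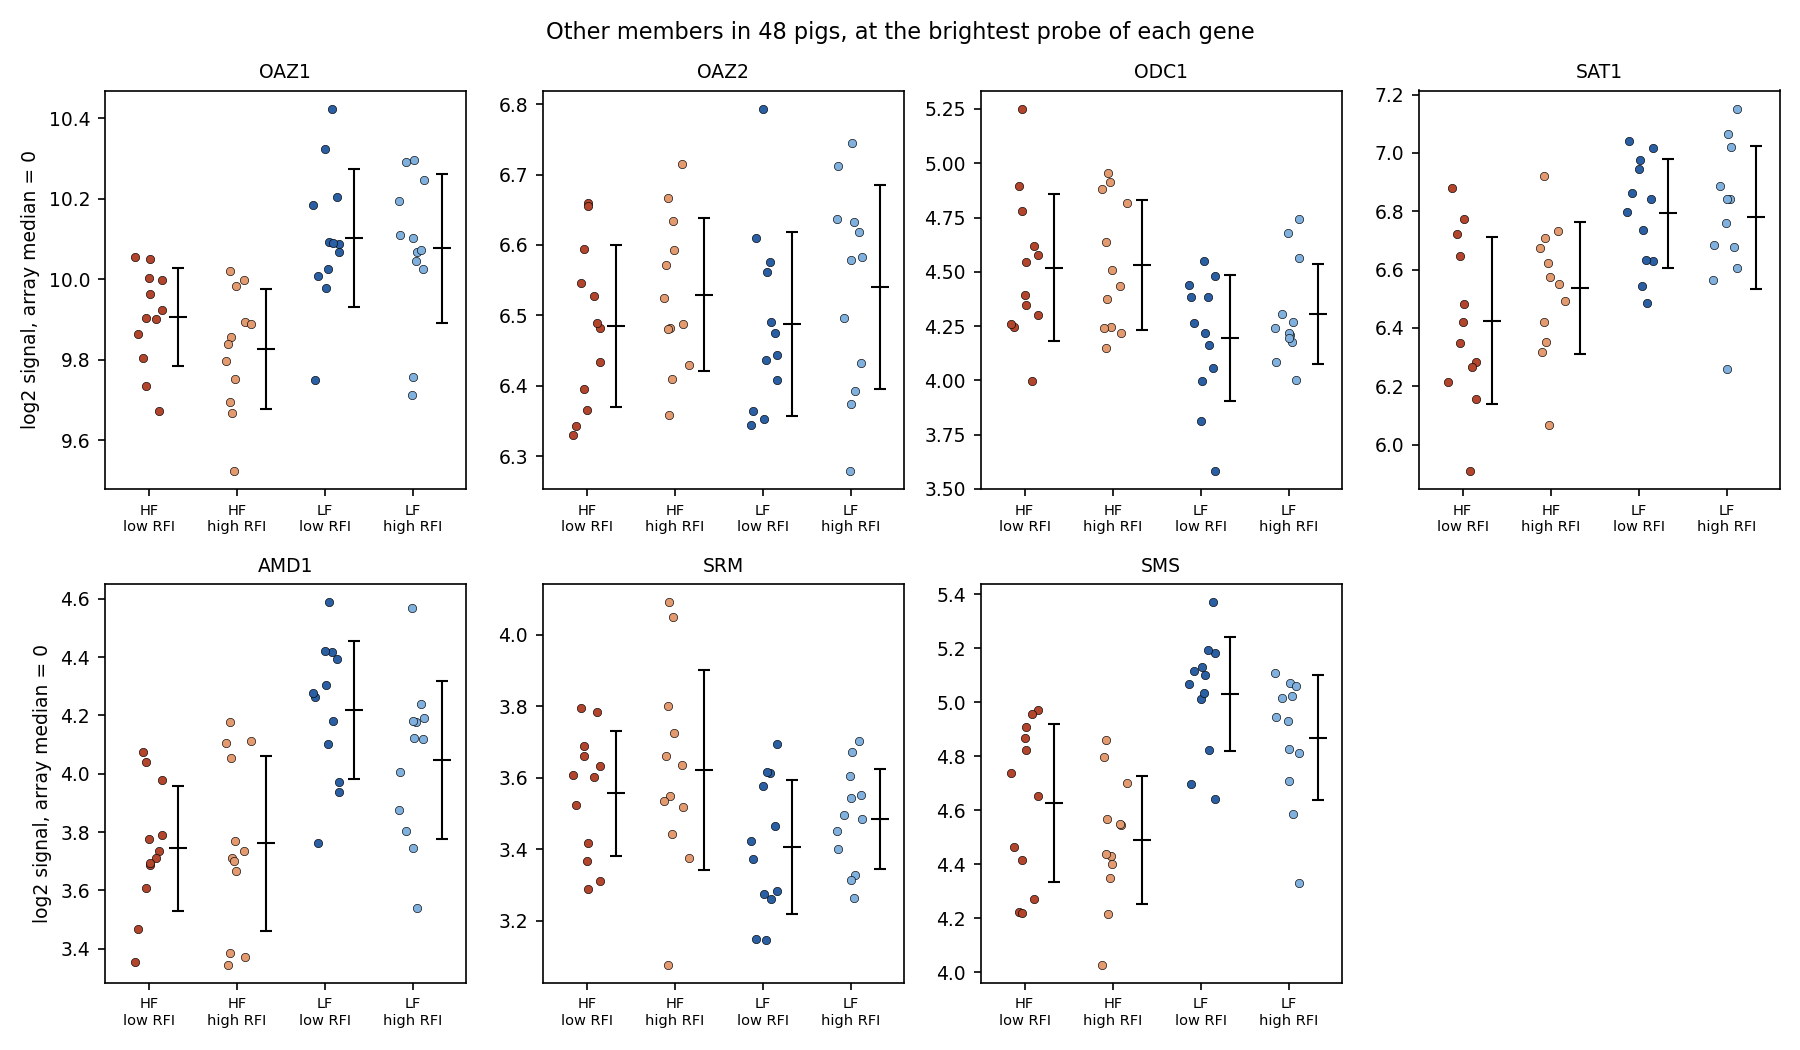
Levels of the other 7 genes (log2 signal with the array median at 0) in each of 48 pigs at the brightest probe, by group, with a bar for the mean and SD (n = 12). OAZ1, SAT1, AMD1 and SMS lie lower on HF than on LF in both lines, ODC1 lies higher, and the OAZ2 diets differ by -0.01.

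The signs of the 5 called differences were the same in either line alone. OAZ1 differed by -0.20 in the low RFI line and -0.25 in the high RFI line, and SMS by -0.40 and -0.38. SAT1 differed by -0.37 and -0.24, AMD1 by -0.47 and -0.29 and ODC1 by 0.32 and 0.22. With 24 pigs a line, ODC1 was called in neither line, and SAT1 and AMD1 were not called in high RFI pigs. On each of the 6 slides the HF to LF difference was below 0 for OAZ1, SAT1, AMD1 and SMS and above 0 for ODC1.

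Some markers of other cells differed between diets as well. Over all genes at their brightest probe, 18.0% were called lower and 5.93% higher on HF. Of 5 macrophage markers tested, 3 were higher on HF (AIF1, CD163 and CSF1R), with a mean marker level of 1.29 to 2.99 in HF and 1.17 to 2.71 in LF pigs. Of 7 adipocyte markers, 2 were lower on HF (LEP by -0.94 and CIDEC by -0.24). ADIPOQ, FABP4, LIPE, LPL and PLIN1 were not called. The adipocyte count is near the share over all genes and is no result about that list. The mean adipocyte marker level was 8.58 to 9.11 in HF and 8.77 to 9.33 in LF pigs. Of 3 kidney markers on the array, AQP2, a water channel of the collecting duct, was lower on HF by -0.63 (limma BH p = 0.000312), while LRP2 and SLC34A1 were well above background on 1 and 3 arrays. The mean kidney marker level was -0.65 to 0.15 in HF and -0.42 to 0.21 in LF pigs. Of 5 T and NK cell markers, 1 was higher on HF, the lymphocyte marker NKG7, by 0.31. The part of these cells in the diet differences of the polyamine genes was not tested.

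Line and the combination of diet and line gave no call. Of the 23 probes outside OAZ3, 0 were called for line, beside 3.22% of all probes tested, and 2 had a raw p under 0.05. The nearest was SMS, higher in low RFI pigs by 0.15 ± 0.07 (limma BH p = 0.355, raw p = 0.0372). Differences ran from -0.10 to 0.15, and no 95% interval reached beyond -0.24 or 0.29. For the interaction 0 of 26 probes were called, 0 had a raw p under 0.05, and 0% of all probes tested were called by limma, where 1074 had a raw p under 0.05.

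**Figure D3:**
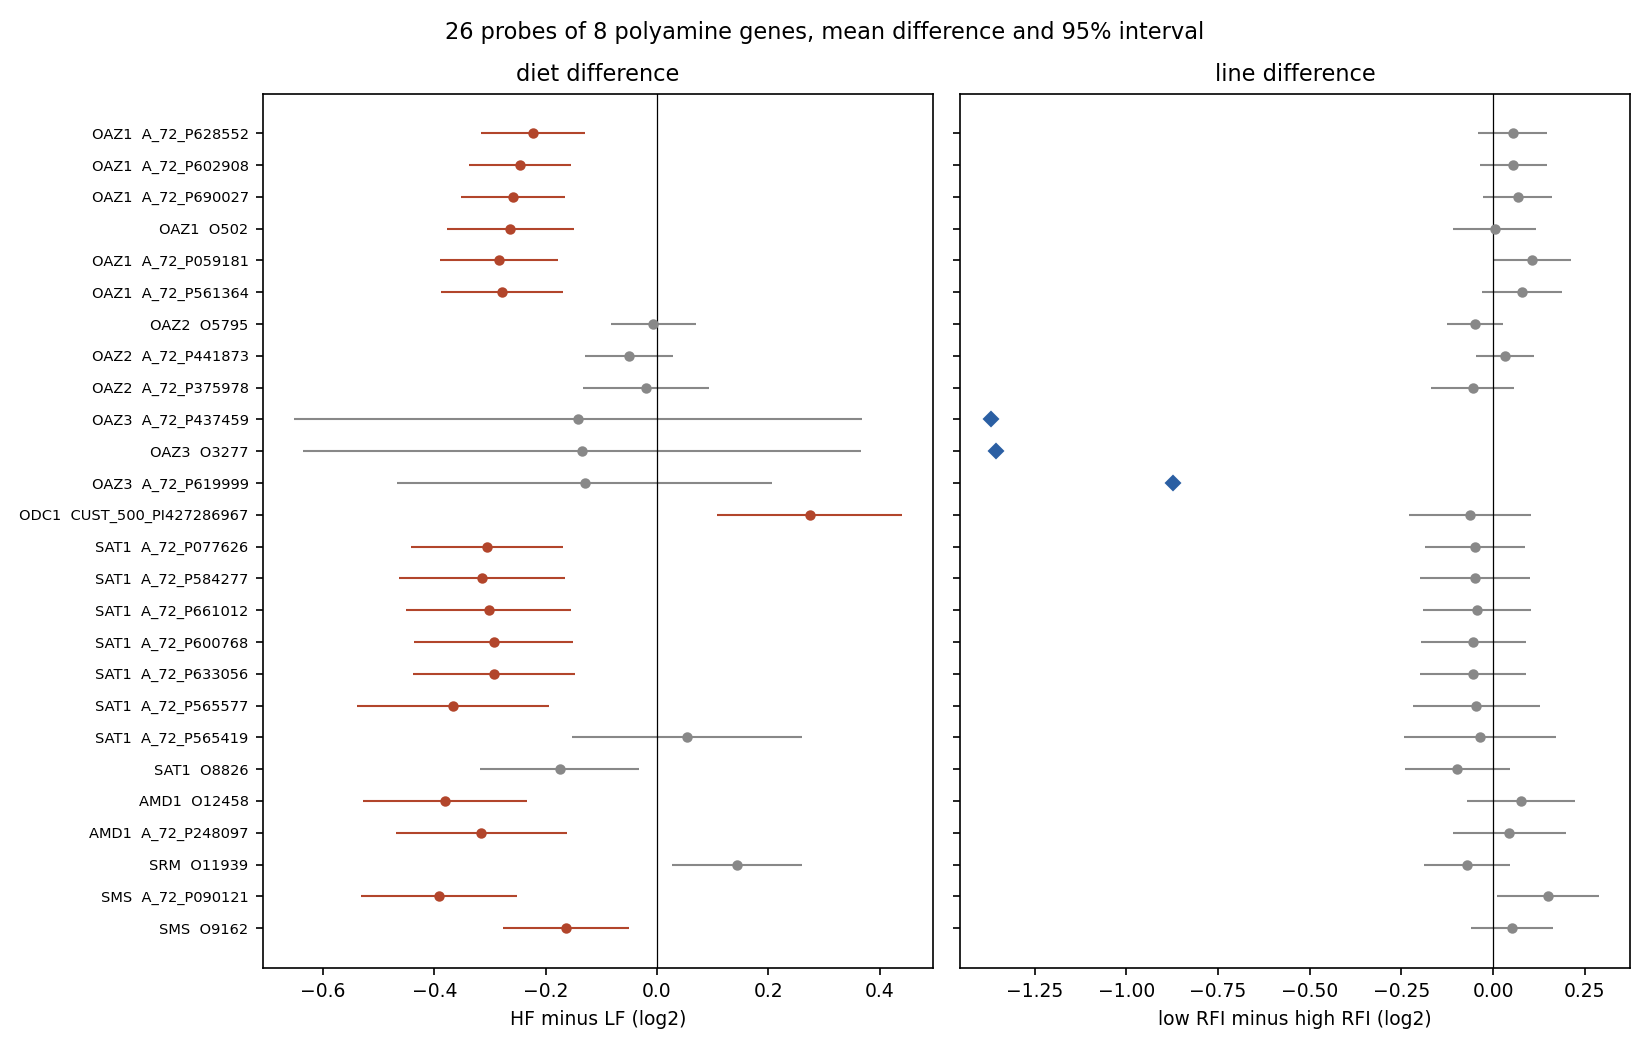
Differences (log2) between diets (HF minus LF, left) and lines (low RFI minus high RFI, right) at all 26 probes with 95% intervals, where red marks called probes and blue diamonds mark OAZ3, shown for line without an interval. The 16 probes called lower on HF belong to OAZ1, SAT1, AMD1 and SMS, and outside OAZ3 the line differences stay between -0.10 and 0.15.

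Of the other genes of the pathway, most did not pass the test for diet. Of 33 listed genes (antizyme inhibitors, oxidases, arginine and methionine enzymes, methionine salvage, the EIF5A branch, transporters and MYC with MAX), 27 were on the array and 26 were tested. On HF 5 were lower and 2 higher. These counts are near the share over all genes, of which 18.0% were lower and 5.93% higher, so they are no result about the list. The median difference was -0.12 against -0.05 over all genes. For line 0 of 26 were called, beside 2.95% of all genes, and for the interaction 0 were called, beside 0% of all genes, so these counts too are no result about the list.

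Among these, AHCY, which clears S-adenosylhomocysteine, averaged 4.81 ± 0.17 (SD, n = 24) on HF and 5.16 ± 0.22 on LF (difference -0.35, limma BH p = 1.83e-05). EIF5A, the translation factor that carries the spermidine-derived hypusine, was lower by -0.22 (BH p = 0.000213). The lysosomal polyamine exporter ATP13A2 was lower by -0.18, and the methionine salvage enzymes ADI1 and APIP were lower by -0.18 and -0.15, although 1 of 3 APIP probes was called. Another enzyme of that salvage route, MRI1, was higher by 0.14 (limma BH p = 0.00144). MYC, a transcription factor for which ODC1 is a known target, averaged 3.03 ± 0.35 on HF and 2.76 ± 0.28 on LF. Its difference was 0.27 (limma BH p = 0.0179), and 4 of 4 MYC probes were called. By scan day it was 0.40 on day 1 and 0.14 on day 2, where it was not called. The antizyme inhibitor AZIN1, named although it was not called, had 7 probes between -0.11 and -0.06. Under quantile normalization ADI1, APIP and ATP13A2 were no longer called.

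**Figure D4:**
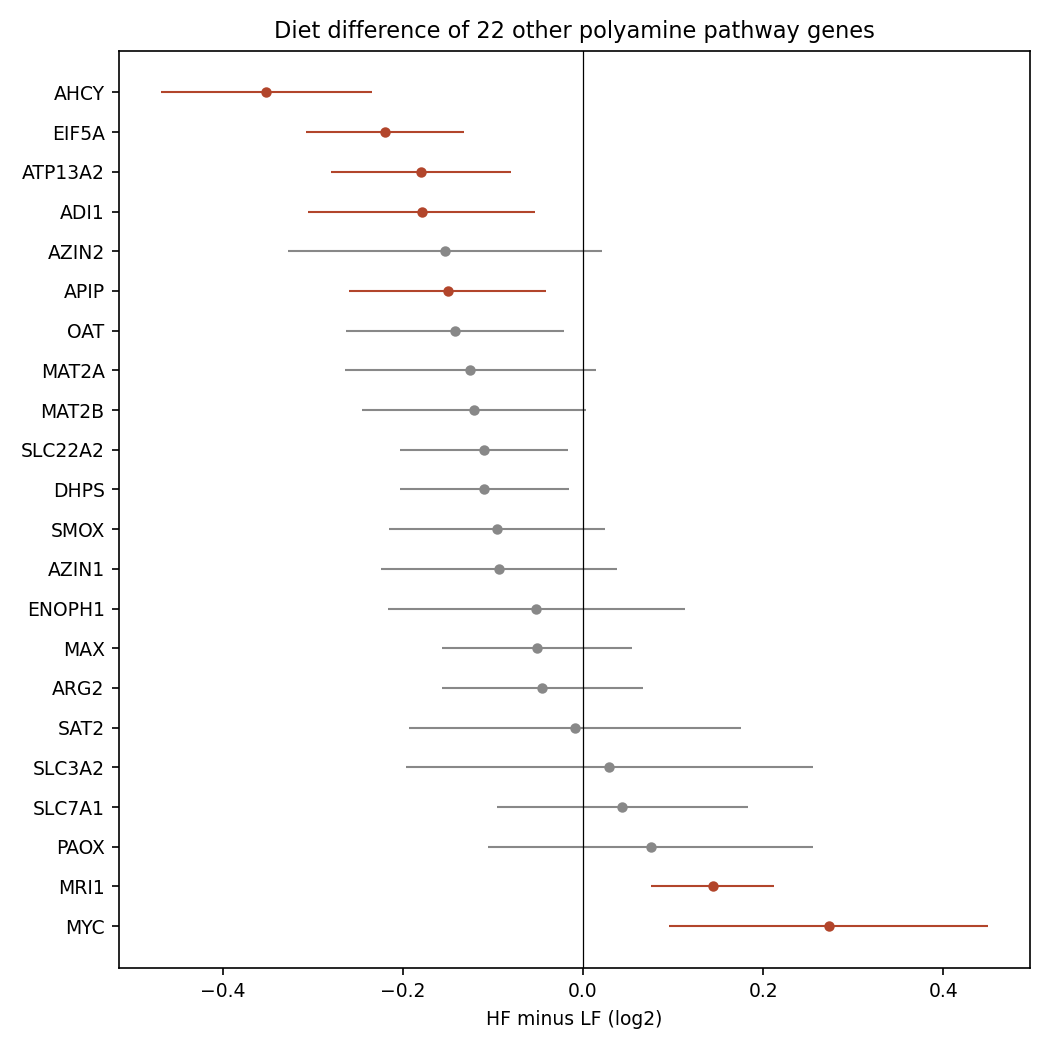
Difference between diets (HF minus LF, log2) with 95% intervals for 22 other genes of the polyamine pathway at their brightest probe, with called genes in red. The 4 genes tested whose interval was wider than 1 are not drawn, and none of them was called. AHCY, EIF5A, ATP13A2, ADI1 and APIP are lower on HF and MRI1 and MYC higher.

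Pigs of the same group differed in how the members went together. Of 28 pairs correlated after removal of group means, the 21 pairs without OAZ3 are reported first. Of these, 3 passed BH p under 0.05 over the 28 (permutation within groups, two-sided, 100000 resamples). ODC1 and SMS ran against each other (r = -0.59, permutation p = 1e-05, the smallest the permutations can give, BH p = 0.00028; rho = -0.56, permutation p = 8e-05). Without the 2 pigs farthest from the ODC1 median r was -0.55, and on the scan days it was -0.57 and -0.60. OAZ1 ran with OAZ2 (r = 0.52, permutation p = 0.00042, BH p = 0.0056; rho = 0.44, permutation p = 0.00247) and with SMS (r = 0.49, permutation p = 0.0006, BH p = 0.0056; rho = 0.55, permutation p = 8e-05). Without the 2 farthest pigs these were 0.50 and 0.48. On the scan days they were 0.55 and 0.44, and 0.48 and 0.46. Under quantile normalization they fell to 0.13 and 0.21 and no longer passed, whereas ODC1 and SMS stayed at -0.64. With slide means removed ODC1 and SMS weakened to -0.46, the OAZ1 pairs gave 0.47 (OAZ2) and 0.44 (SMS), and all 3 still passed.

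**Figure D5:**
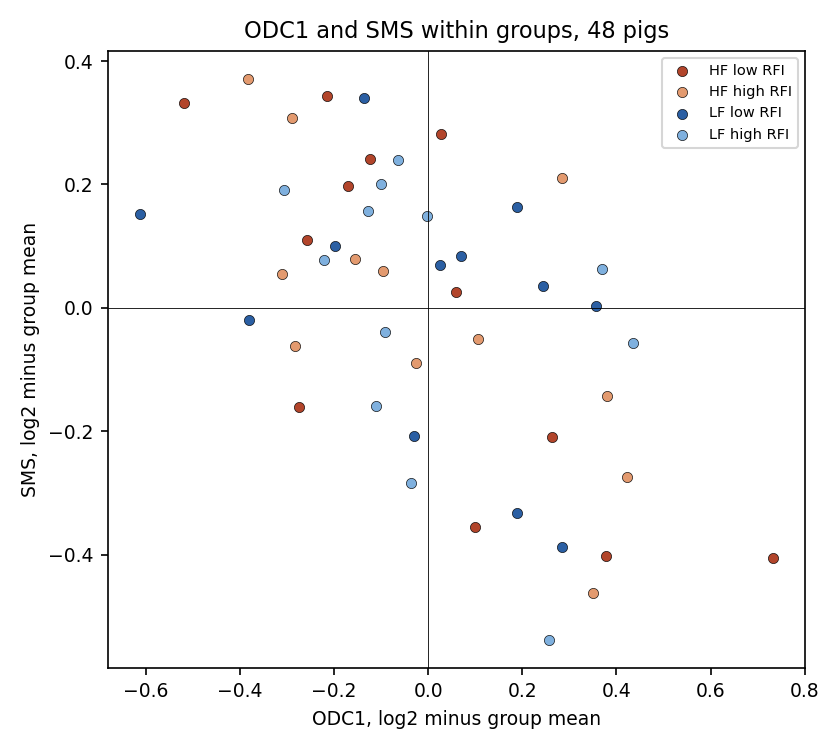
Level of SMS against ODC1 in 48 pigs, both as log2 signal minus the mean of the pig's group, coloured by group. Pigs with a high ODC1 level tend to have a low SMS level (r = -0.59 over 48 pigs).

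OAZ3 was set against the other members over all pigs and within its lower and upper sets. Over 48 pigs its largest r was with OAZ2 (0.33, permutation BH p = 0.125), and no OAZ3 pair passed. With slide means removed OAZ2 and OAZ3 gave 0.38 (permutation BH p = 0.047). Within the sets r was taken after removal of the group means of all 48 pigs, so a line difference can remain in it. Among the 17 lower pigs r ran from -0.25 (AMD1) to 0.49 (SAT1), and among the 31 upper pigs from -0.24 (AMD1) to 0.21 (SMS). The values within sets are a description without a test.

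The genes most like OAZ1 within groups, among 9663, were NDUFV2 (r = 0.85) and COX7A2 (0.83), which belong to the respiratory chain, COQ6 (0.83), an enzyme of coenzyme Q synthesis, WDR83OS (0.83) and ERP29 (0.83), a chaperone of the endoplasmic reticulum. The lowest were CAMKK2 (-0.70), a kinase upstream of AMPK, KRT18 (-0.67), a keratin, and EFHD2 (-0.66). NDUFV2, COQ6, WDR83OS and COX7A2 were called lower on HF, as were OAZ1 and 18.0% of all genes. These r were taken on arrays centred on their median only. Under quantile normalization the r of OAZ1 with OAZ2 and SMS fell to 0.13 and 0.21, and the likeness of other genes was not tested there.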

How the data were processed

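PRAT RNA of 48 pigs was labelled with Cy3 and hybridised to 1 array each, and the authors deposited spot intensity values from Feature Extraction 10.7.3.1 without normalization between arrays. The authors also deposited log2 values centred on the array median for 38142 entries, which equal log2 of 1 spot's median signal within 1e-06. Only 2 entries carry the name of that spot, so genes were named from the scanner files. The deposited flags (score 0 or 1) mark spots well above background or saturated. The submitters' processing notes name R 2.10.0.

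Here the median signal was taken to log2, centred on each array's median over 60306 non-control spots, and tested with limma 3.58.1 (R 4.3.3) for diet, line and interaction, over probes well above background on at least 12 arrays. Permutations used numpy 2.4.6. The limma test for diet was run on simulated data with independent noise at each probe, and the other steps were not. By rule, named genes were all members, called pathway genes and those most and least like OAZ3 and OAZ1. AZIN1, MRPL9, S100A10 and cell markers are named outside it, after their values were seen. Members, lists and rules were chosen with earlier results of these data known. The number of arrays limits the precision. Labels name separate pigs, and replicate numbers were not taken to pair them. Of 72 same-number pairs, 38 correlated over 0.1, and in all 72 both arrays of the pair shared a slide. Alternatives were other scalings, background corrections, filters, models, thresholds and subsets of pigs. Markers of T and NK cells (1 of 5 higher on HF), endothelium (0 of 4 called), fibroblasts (0 of 4), adrenal (0 of 3), erythrocytes (0 of 2) and kidney (1 of 1 tested lower on HF) were checked too. Subcutaneous fat was not analysed here, and 1 gene of the pathway list is not reported here.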

Additional observations from a re-analysis of the deposited data

How the results depend on the processing

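The 5 members called for diet stayed 5 under the slide block, the scan day block, no interaction term, two-way ANOVA, BH under 0.05, the processed signal, both other filters, the authors' normalized values and the mean of a gene's probes. They were 6 (with SRM) under the other centring, quantile normalization and normexp. With the replicate number as a block they were 5, the other pathway genes called were 8, and no member's call changed. A fold over 1.5 left 0 members and 0 other pathway genes. Fewer pigs gave fewer calls, with 2 in high RFI pigs alone, 3 on scan day 1 alone and 3 on scan day 2 alone. Calls of the other pathway genes went from 7 to 4 under quantile normalization and to 4 under normexp with quantile normalization. The correlated pairs without OAZ3 went from 3 to 1 under quantile normalization and to 5 with slide means removed. The cause was not tested. Of 285 tested values of single members recomputed, 269 kept their direction, or stayed uncalled, and their side of the threshold, 16 changed their call and 0 reversed as called values. The uncalled diet differences of OAZ2 (-0.05 to 0.08) and OAZ3 (-0.46 to 0.18) changed sign. The OAZ3 line difference, which has no test, ran from -1.57 (scan day 1 alone) to -1.17 (scan day 2 alone). Line gave 0 called members among the other 7 genes, and the interaction 0 among 8, in every alternative run. Of all probes called for diet, 63.1% were lower on HF, 50.1% when centred on the 75th percentile, 48% after quantile normalization and 48.2% after normexp, so a direction is relative to the centring. Spot signal over background limits the second SMS probe.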
